A study of Arabidopsis thaliana with 24 samples.

Results

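On arrays of 22746 probe sets besides the AFFX controls, 102 probe sets had a signal at least 2-fold lower after treatment with IAA (indole-3-acetic acid, the main natural auxin, at 5 µM) in wild-type Arabidopsis thaliana seedlings of Columbia (Col). They were chosen on the Col arrays alone: the mean log2 signal with IAA lay at least 1 below the mean without it, and the highest of 3 IAA arrays lay below the lowest of 3 control arrays. This held for 111 probe sets, 0.704% of the 15757 that were above the lower limit of the scale on at least 1 array. Class III peroxidases, symbols beginning GSTU, SWEET, TBL or UGT, and AT4G25250, AT3G45700, AT4G11190, AT4G11210 and tny were left out, which removed 9. These exclusions could reach only probe sets paired with 1 gene in the annotation used. Of the 102 probe sets, 38 are paired with 1 gene and are named here by that gene, 3 match several genes and 61 have no gene in the annotation used. The 3 and the 61 were not screened and may hold genes of the excluded kinds.

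Seedlings of 4 genotypes were compared, each treated for 2 h at 24 °C with IAA or with ethanol, the solvent, as the control. The genotypes were the nph4-1 arf19-1 double mutant, the nph4-1 mutant, the arf19-1 mutant and Col, and the mutants are in the Columbia background. All seedlings were 7 days old and had grown in shaken liquid Murashige and Skoog medium with 1.5% sucrose, with 16 h of light and 8 h of darkness a day. Each of the 8 groups had 3 arrays of total RNA, and 1 mutant allele of each gene was used. Whether the 3 arrays of a group come from separate cultures is not stated, so p-values may measure technical spread only.

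Auxin acts in the nucleus by promoting the destruction of Aux/IAA repressors, which frees the auxin response factors (ARFs) bound to them. NPH4 encodes ARF7, and ARF7 and ARF19 are ARFs of the activator class with overlapping roles in lateral root formation and tropic growth. Genes with lower transcript levels after auxin are known less well than the rapidly induced Aux/IAA, GH3 and LBD genes, and many of the genes below are known only by the family of the protein they encode.

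The deposited values are log2 signals with a lower limit of 5.64, which is 50 in linear units and is called the floor here. At the floor lay 35.6% to 36.7% of each array's values, array medians ran from 6.645 to 6.758, and limma gave the lowest array weights to nph4-1 IAA 1 (0.144) and Col control 3 (0.185). Per the labels, the data of Col control 2 and Col control 3 are corrected versions that took the place of earlier tables. Neither ARF7 nor ARF19 had a probe set named in the annotation, so the mutated genes were not analysed here. PYK10, a gene expressed mainly in roots, averaged between 12.7 and 12.99 in all 8 groups, and the 4 root hair markers with a named probe set (EXPA7, EXPA18, XTH26 and GH9C1) were above the floor on all 24 arrays. Leaf photosynthesis markers had no named probe set among those tested.

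In Col the responses of the 102 probe sets, as the mean log2 signal with IAA minus that without, ran from -3.02 to -1.01 with a median of -1.19. These values chose the probe sets and carry no test. The genes closest inside the threshold were AT1G64590 (-1.007), AT1G23205 (-1.008) and AT1G14220 (-1.02). The closest outside, before any exclusion by family or name, were AT2G39040 (-0.999), AT4G30450 (-0.989) and AT1G14960 (-0.987). AT3G46490 had a response of -1.013 but its IAA and control arrays overlapped. Signals without IAA in Col ran from 6.66 to 11.14. RNA came from whole seedlings, in which fewer cells of a type and less RNA per cell cannot be told apart.

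In the mutants the fall was smallest in nph4-1 arf19-1, intermediate in nph4-1 and close to that of Col in arf19-1. The median response of the 102 probe sets was -0.19 in nph4-1 arf19-1, -0.36 in nph4-1 and -1.11 in arf19-1, against medians of 0.0, 0.0 and -0.01 over all tested probe sets. The estimates of the mutants' responses use no Col array and were tested, while the spread behind their errors is pooled over all 24 arrays, those of Col included. With limma at a Benjamini-Hochberg adjusted p under 0.05 over all 15757 probe sets, 7 members fell in nph4-1 arf19-1 (0.0825% of all tested probe sets fell there), 35 in nph4-1 (0.8%) and 97 in arf19-1 (5.22%). No member rose with IAA in a mutant. At an unadjusted p under 0.05 the falls numbered 27, 59 and 100 in the same order of genotypes, against 2.11%, 5.29% and 10.2% of all tested probe sets. A fit on the 18 mutant arrays alone, added after the data were seen, gave 8, 36 and 97 falls at an adjusted p under 0.05 (0.0836%, 1.05% and 6.16%). The count in nph4-1 was 18 when only the 6 nph4-1 arrays were fitted (0.257%) and 53 with array weights (2.06%).

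The size of the falls separated the genotypes in the same order. A response of -1 or below was measured for none of the members in nph4-1 arf19-1, for 11 in nph4-1 and for 65 in arf19-1. Over all tested probe sets the shares with such a response were 0.0127%, 0.146% and 0.59%. The IAA arrays all lay below the control arrays for 30 members in nph4-1 arf19-1 (5.62% of all tested probe sets), for 56 in nph4-1 (5.98%) and for 98 in arf19-1 (15.5%). On single arrays, the median over the members was 7.47, 7.52 and 7.64 with IAA and 7.73, 7.78 and 7.85 without it in nph4-1 arf19-1. It was 7.69, 7.45 and 7.64 with IAA and 7.96, 7.85 and 8.02 without it in nph4-1. In arf19-1 it was 6.93, 6.83 and 6.93 with IAA and 7.98, 7.97 and 8.05 without it. The IAA arrays lay below the control arrays in each mutant, by the widest gap in arf19-1.

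**Figure D1:**
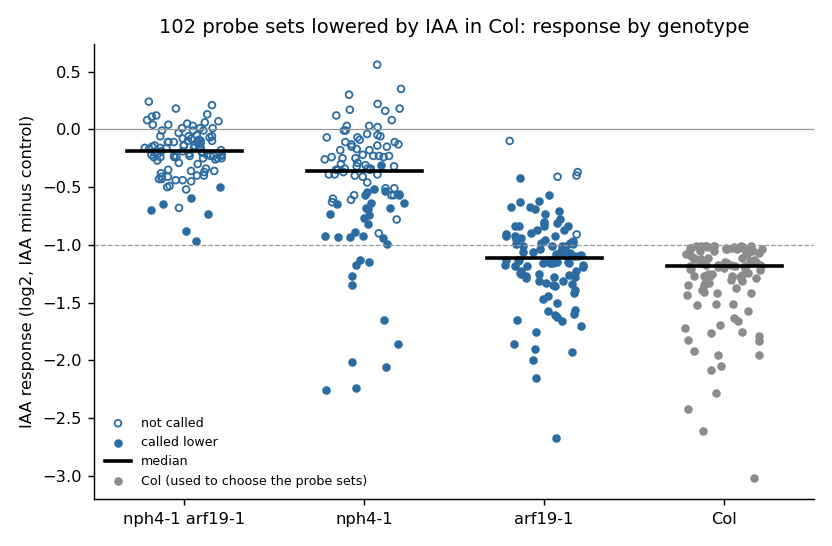
Each point is 1 of the 102 probe sets and the y axis is its IAA response (log2, IAA minus control, means of 3 arrays each). Filled blue points fell at an adjusted p under 0.05 in limma, grey points are the Col values that chose the probe sets, and bars mark medians of -0.19 (nph4-1 arf19-1), -0.36 (nph4-1), -1.11 (arf19-1) and -1.19 (Col).

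By pattern, 63 members fell in arf19-1 and did not pass the test in nph4-1 or nph4-1 arf19-1, and 27 fell in both single mutants and did not pass in nph4-1 arf19-1. Another 7 fell in all 3 mutants, 1 (AT1G19900) passed in nph4-1 alone, and 4 passed in no mutant. A call in one mutant and none in another is not a difference between them, and those differences were tested separately below. Among the 38 named genes the counts were 26, 10, 0, 1 and 1 in the order of these patterns. The shares of all tested probe sets with these patterns were not counted. Falls over all tested probe sets were also most frequent in arf19-1 (5.22%), then in nph4-1 (0.8%) and in nph4-1 arf19-1 (0.0825%).

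Transcription and signalling genes formed a group of 5 named members, of which 0 fell in nph4-1 arf19-1, 1 in nph4-1 and 5 in arf19-1. The groups by role rest on what is known of the protein families and were made after the values had been seen. LSH9, of the ALOG family of plant transcriptional regulators, had signals of 7.31, 7.35 and 7.37 with IAA and 7.39, 7.51 and 7.57 without it in nph4-1 arf19-1. In nph4-1 its signals were 7.30, 6.82 and 7.31 with IAA and 7.47, 7.24 and 7.46 without it. In arf19-1 the IAA arrays, at 6.23, 6.02 and 6.47, all lay about 1 unit or more below the control arrays, at 7.55, 7.49 and 7.52. It fell in arf19-1 by 1.28 (SE 0.13, adjusted p 5.2e-07) and had responses of -0.14 (adjusted p 1) in nph4-1 arf19-1 and -0.24 (adjusted p 0.49) in nph4-1.

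AT5G07580 encodes a transcription factor of the AP2/ERF family. Its signals in nph4-1 were 9.39, 8.73 and 9.09 with IAA and 8.78, 8.78 and 8.76 without it, so 2 of the 3 IAA arrays lay above the control arrays. In arf19-1 they were 7.64, 7.57 and 7.81 with IAA and 8.54, 8.47 and 8.54 without it. The gene fell in arf19-1 by 0.84 (SE 0.16, adjusted p 0.00065), while its responses were 0.13 (adjusted p 1) in nph4-1 arf19-1 and 0.30 (SE 0.16, adjusted p 0.46) in nph4-1.

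AT1G74840, of the MYB-related family, fell in nph4-1 by 0.31 (SE 0.08, adjusted p 0.043) and in arf19-1 by 1.18 (SE 0.08, adjusted p 7.3e-10). The call in nph4-1 was lost in 17 of 33 alternatives. In arf19-1 its signals were 8.72, 8.87 and 8.73 with IAA and 9.92, 9.96 and 9.98 without it, while in Col they were 8.53, 8.61 and 8.64 with IAA and 9.80, 9.94 and 9.89 without it. The protein kinase gene AT1G54820 and the type 2C protein phosphatase gene AT3G16560 fell in arf19-1 by 0.96 (SE 0.16) and 1.09 (SE 0.13). Their responses were -0.10 and -0.14 in nph4-1 arf19-1, and -0.15 and -0.18 in nph4-1.

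The cell wall group had 5 named members, of which 0 fell in nph4-1 arf19-1, 2 in nph4-1 and 4 in arf19-1. AT5G62360 and AT1G23205 belong to the family of invertase and pectin methylesterase inhibitors, small proteins that restrain enzymes of sucrose cleavage or pectin modification. AT5G62360 had signals of 9.40, 9.31 and 9.53 with IAA and 9.09, 9.28 and 9.37 without it in nph4-1. In arf19-1 its signals were 7.71, 7.41 and 7.70 with IAA and 8.52, 8.26 and 8.86 without it. Its IAA and control arrays did not overlap in arf19-1 and overlapped in nph4-1, and it fell in arf19-1 by 0.94 (SE 0.20, adjusted p 0.0024). AT1G23205 fell in arf19-1 by 1.17 (SE 0.23, adjusted p 0.0011), with responses of -0.08 in nph4-1 arf19-1 and -0.07 in nph4-1.

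AT4G30460 encodes a glycine-rich protein. It had signals of 7.30, 7.26 and 7.53 with IAA and 7.34, 7.43 and 7.23 without it in nph4-1 arf19-1. In arf19-1 they were 5.80, 6.10 and 6.02 with IAA and 7.22, 7.09 and 7.67 without it, and the fall there was 1.35 (SE 0.15, adjusted p 1.1e-06). In Col they were 5.91, 5.91 and 5.95 with IAA and 6.77, 7.43 and 6.89 without it. AT4G20460, an epimerase of nucleotide sugars by family, fell in nph4-1 by 0.57 (SE 0.15, adjusted p 0.048) and in arf19-1 by 0.90 (SE 0.15, adjusted p 0.00022). Its call in nph4-1 was lost in 23 of 33 alternatives.

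AT1G19900, related to glyoxal oxidases, was the one named member that fell in nph4-1 and did not pass in arf19-1. Its signals in nph4-1 arf19-1 were at the floor of 5.64 on all 3 IAA arrays, and 5.64, 5.64 and 6.0 on the control arrays. In nph4-1 they were 6.36, 6.44 and 6.56 with IAA and 7.18, 7.09 and 7.32 without it, and in arf19-1 7.11, 7.20 and 7.38 with IAA and 7.05, 7.36 and 7.56 without it. In Col they were 6.23, 6.54 and 6.17 with IAA and 7.34, 7.46 and 7.23 without it. The groups did not overlap in nph4-1 and overlapped in arf19-1. The fall was 0.74 (SE 0.13, adjusted p 0.0012) in nph4-1, and the response was -0.10 (adjusted p 0.85) in arf19-1. The difference between these 2 responses, -0.65 (SE 0.18), did not pass the test (adjusted p 0.079).

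Of the 3 named lipid genes, 0 fell in nph4-1 arf19-1, 2 in nph4-1 and 3 in arf19-1. AT3G06460, of the ELO family of fatty acid elongases, had signals of 7.17, 7.62 and 7.24 with IAA and 7.36, 7.80 and 7.64 without it in nph4-1 arf19-1. In nph4-1 they were 7.22, 7.45 and 7.14 with IAA and 7.94, 8.16 and 8.47 without it, and in arf19-1 7.31, 7.32 and 7.33 with IAA and 8.38, 8.32 and 8.54 without it. The arrays with IAA lay between 7.14 and 7.62 in the 3 mutants. Without IAA the gene was lower in nph4-1 arf19-1 than in nph4-1 by 0.59 (adjusted p 0.042, lost in 13 of 33 alternatives) and than in arf19-1 by 0.82 (adjusted p 0.0016). It fell by 0.92 in nph4-1 (SE 0.15, adjusted p 0.00084) and by 1.10 in arf19-1 (SE 0.15, adjusted p 2.6e-05).

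AT3G49190, of a family of wax ester synthases, fell by 0.77 in nph4-1 (SE 0.14, adjusted p 0.0019) and by 0.91 in arf19-1 (SE 0.14, adjusted p 8.1e-05). AT4G28780, a GDSL lipase, fell in arf19-1 by 0.84 (SE 0.22, adjusted p 0.014) and had a response of 0.08 in nph4-1. Leaving out arf19-1 control 1 or 2, or arf19-1 IAA 1 or 2, ended that call, as did a fit of the arf19-1 arrays alone, with an adjusted p of at most 0.10. The calls of AT3G06460 and AT3G49190 in nph4-1 were lost when only the nph4-1 arrays were fitted, at adjusted p of 0.056 and 0.076.

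Protein and RNA turnover had 3 named members, of which 0 fell in nph4-1 arf19-1, 1 in nph4-1 and 3 in arf19-1. AT1G72200, a RING-H2 finger protein of the ATL family of ubiquitin ligases, was the named gene with the lowest Col response, -2.08. Its Col fall is a lower bound, since 2 of its 3 Col IAA arrays were at the floor. Its signals in nph4-1 arf19-1 were 7.22, 6.70 and 6.93 with IAA and 7.40, 7.13 and 6.79 without it. In nph4-1 they were 7.77, 7.15 and 7.21 with IAA and 7.89, 7.47 and 7.66 without it. In arf19-1 they were 5.90, 6.04 and 6.02 with IAA and 8.12, 7.85 and 7.98 without it, and the groups lay apart there. It fell 3.99-fold in arf19-1 (log2 -2.00, SE 0.18, adjusted p 7e-08), with responses of -0.15 (adjusted p 1) in nph4-1 arf19-1 and -0.30 (adjusted p 0.53) in nph4-1.

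AT3G20015, an aspartyl protease by family, had signals of 7.95, 7.55 and 7.64 with IAA and 7.81, 7.56 and 7.54 without it in nph4-1 arf19-1. In arf19-1 they were 6.68, 6.78 and 6.89 with IAA and 8.45, 8.09 and 8.06 without it. It fell in arf19-1 2.67-fold (log2 -1.42, SE 0.17, adjusted p 3.2e-06), and its responses of 0.07 in nph4-1 arf19-1 and -0.25 in nph4-1 did not pass. AT1G14220, a ribonuclease of the T2 family, fell by 0.69 in nph4-1 (SE 0.12, adjusted p 0.00099) and by 0.81 in arf19-1 (SE 0.12, adjusted p 3.8e-05). The nph4-1 call of AT1G14220 was lost when only the nph4-1 arrays were fitted (adjusted p 0.061).

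Both named transport genes fell in arf19-1, and 1 of them fell in nph4-1. AT3G21670 encodes the nitrate transporter NPF6.4, also known as NRT1.3. It had signals of 6.83, 7.09 and 6.89 with IAA and 7.06, 6.92 and 6.71 without it in nph4-1 arf19-1, and of 6.01, 6.01 and 5.84 with IAA and 6.72, 6.93 and 6.54 without it in arf19-1. The control signals in Col, 7.55, 7.22 and 7.89, were above those of the other genotypes. It fell in arf19-1 by 0.78 (SE 0.15, adjusted p 0.00099). AT2G16980, of the major facilitator superfamily, fell by 0.64 in nph4-1 (SE 0.15, adjusted p 0.024, lost in 5 of 33 alternatives) and by 1.24 in arf19-1 (SE 0.15, adjusted p 5.2e-06).

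Metabolic enzymes were the largest of the role groups, with 8 named members, of which 0 fell in nph4-1 arf19-1, 1 in nph4-1 and 8 in arf19-1. AT3G01260, a galactose mutarotase-like protein, had the second lowest Col response of the named genes, -1.95, and a smaller fall of 0.99 in arf19-1 (SE 0.18, adjusted p 0.00073). Its signals in arf19-1 were 7.48, 7.40 and 7.81 with IAA and 8.55, 8.46 and 8.64 without it, while in Col they were 6.30, 6.19 and 7.03 with IAA and 8.18, 8.47 and 8.73 without it. In nph4-1 arf19-1 and nph4-1 the responses were -0.27 and -0.40, and neither passed.

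The probe set named for AT3G32030, of the terpene synthase family, is of a type that can match several transcripts. It fell by 0.68 in nph4-1 (SE 0.16, adjusted p 0.017, lost in 3 of 33 alternatives) and by at least 2.4-fold to the floor in arf19-1 (log2 -1.26, SE 0.16, adjusted p 5.8e-06). AT5G02230 and AT3G62040, hydrolases of the HAD superfamily, fell in arf19-1 by 1.04 (SE 0.20) and 0.73 (SE 0.20), with responses between -0.18 and -0.04 in the other mutants. The call of AT3G62040 (adjusted p 0.016) was lost without arf19-1 control 3, IAA 1 or IAA 2, at an adjusted p of at most 0.08.

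The purple acid phosphatase gene AT1G25230 had responses of -0.43 (adjusted p 0.43) in nph4-1 arf19-1 and -0.31 in nph4-1, and fell in arf19-1 by 0.67 (SE 0.14, adjusted p 0.0017). AT5G60760, related to 2-phosphoglycerate kinase, the flavin monooxygenase gene AT5G61290 and the short-chain dehydrogenase gene AT1G64590 fell in arf19-1 by 1.34 (SE 0.10), 1.07 (SE 0.20) and 1.17 (SE 0.17). Of these, AT5G60760 came closest to a call in nph4-1, at -0.35 (adjusted p 0.054).

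Other domains and genes of no stated role made up the remaining 12 named members. AT5G60520, related to late embryogenesis abundant proteins, had signals of 6.19, 6.35 and 6.26 with IAA and 6.66, 6.36 and 6.53 without it in nph4-1 arf19-1. In nph4-1 they were 6.67, 6.31 and 6.0 with IAA and 7.22, 7.16 and 7.04 without it, in arf19-1 5.93, 5.78 and 5.86 with IAA and 7.38, 7.13 and 6.94 without it, and in Col at the floor with IAA and 7.39, 7.27 and 7.45 without it. The IAA and control arrays lay well apart in both single mutants and nearly met in nph4-1 arf19-1. It fell by 0.82 in nph4-1 (SE 0.13, adjusted p 0.00064) and by 1.29 in arf19-1 (SE 0.13, adjusted p 3.6e-07), and the nph4-1 call was lost when only the nph4-1 arrays were fitted (adjusted p 0.11).

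AT3G13760, with a DC1 domain, fell in arf19-1 by 1.01 (SE 0.11, adjusted p 5.8e-07) and had responses of -0.16 in nph4-1 arf19-1 and -0.24 in nph4-1. AT1G78260, an RNA-binding protein with an RRM domain, fell by 0.73 in nph4-1 (SE 0.12, adjusted p 0.001) and by 0.98 in arf19-1 (SE 0.12, adjusted p 7.6e-06). Its response of -0.38 in nph4-1 arf19-1 did not pass (adjusted p 0.48).

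The 9 named members with no role stated had 0 falls in nph4-1 arf19-1, 1 in nph4-1 and 8 in arf19-1. AT1G76240 was the one that fell in nph4-1, with signals of 7.49, 7.81 and 7.54 with IAA and 8.47, 8.59 and 8.75 without it. In nph4-1 arf19-1 its signals were 7.81, 7.67 and 7.82 with IAA and 7.98, 7.90 and 7.92 without it, and in arf19-1 7.55, 7.54 and 7.56 with IAA and 8.83, 8.57 and 8.71 without it. The falls were 0.99 in nph4-1 (SE 0.11, adjusted p 3e-06) and 1.15 in arf19-1 (SE 0.11, adjusted p 7.9e-08), and the response was -0.16 (adjusted p 1) in nph4-1 arf19-1.

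AT2G28780 had signals of 7.41, 7.22 and 6.91 with IAA and 7.28, 7.22 and 7.01 without it in nph4-1 arf19-1. In arf19-1 it was at the floor on all 3 IAA arrays and had 7.06, 7.07 and 6.35 on the control arrays, a fall of at least 2.27-fold (log2 -1.18, SE 0.21, adjusted p 0.0004). AT5G03230 fell in arf19-1 by 1.08 (SE 0.13, adjusted p 2.8e-06) and had responses of 0.06 in nph4-1 arf19-1 and 0.03 in nph4-1. AT4G39675, AT3G27390, AT3G13980, AT2G30930 and AT1G15260 also fell in arf19-1, by between 0.57 (AT1G15260, adjusted p 0.0072) and 1.16 (AT4G39675 and AT2G30930). AT1G15260 did not pass without arf19-1 IAA 1 (adjusted p 0.053). AT5G01015 passed in no mutant, with responses of 0.12 in nph4-1 arf19-1, -0.07 in nph4-1 and -0.37 (adjusted p 0.13) in arf19-1.

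**Figure D2:**
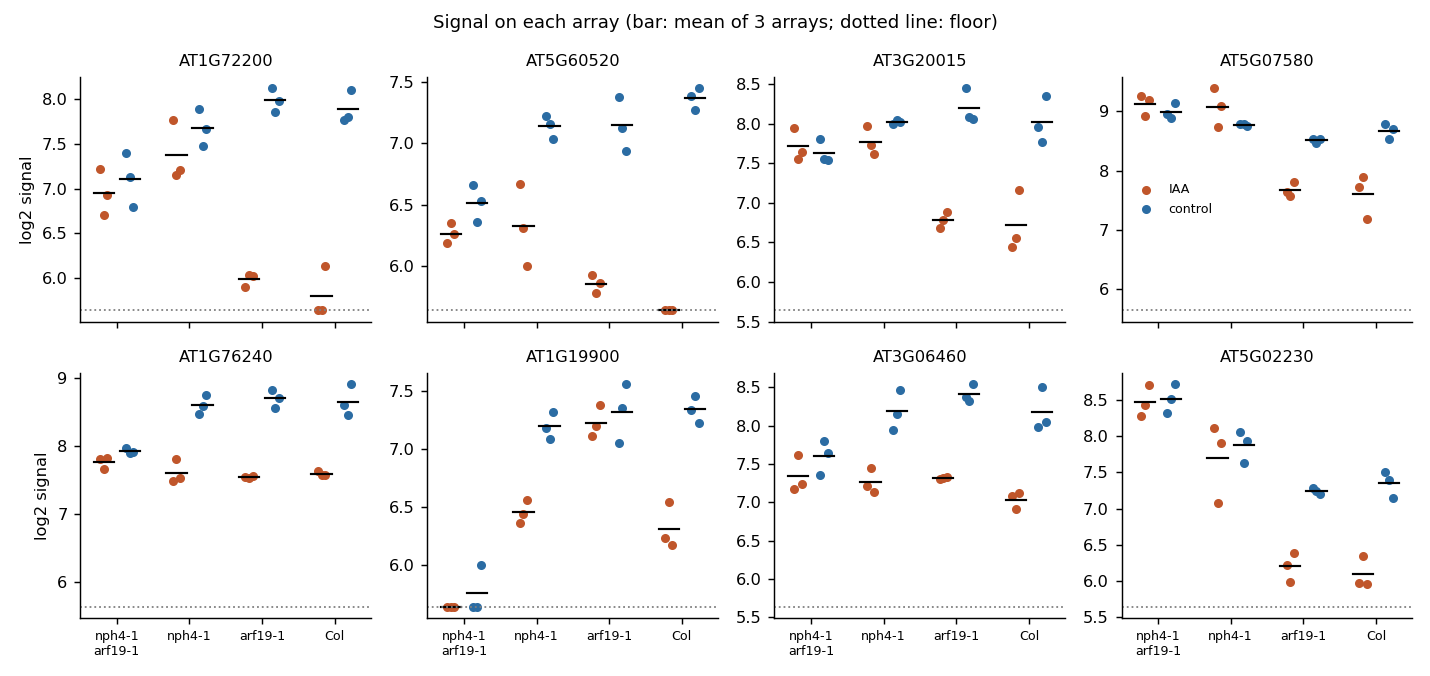
Log2 signal on each array (points), with IAA in orange left of the control in blue, for 8 named genes; bars are means of 3 arrays and the dotted line is the floor of 5.64. AT1G72200, AT3G20015, AT5G07580 and AT5G02230 are low with IAA in arf19-1 and Col, AT1G76240 and AT3G06460 also in nph4-1, and AT1G19900 is near the floor in nph4-1 arf19-1 with and without IAA.

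The 7 members that fell in nph4-1 arf19-1 have no single gene in the annotation, and all 7 fell in both single mutants as well. Their responses in nph4-1 arf19-1 ran from -0.97 to -0.50. Probe set 248844_s_at had signals of 9.22, 9.46 and 9.46 with IAA and 10.16, 10.50 and 10.39 without it in nph4-1 arf19-1. Its IAA and control arrays lay apart there, and the fall was 1.96-fold (log2 -0.97, SE 0.13, adjusted p 0.00033). In nph4-1 and in arf19-1 the response was -1.65 (SE 0.13), and in Col it was -1.63. Probe set 254606_at had signals of 7.44, 7.83 and 7.60 with IAA and 8.33, 8.28 and 8.22 without it in nph4-1 arf19-1, a fall of 0.65 (SE 0.09, adjusted p 0.0006). It fell by 2.24 in nph4-1 and by 1.61 in arf19-1. The weakest of the 7 calls was that of 253957_at, at an adjusted p of 0.0498.

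The count of 7 depends on single libraries. It was 3 without nph4-1 arf19-1 control 2, without control 3 or without IAA 1, and 4 without IAA 3. It was 13 with array weights (0.463% of all tested probe sets), 4 when adjusted over all 22746 probe sets (0.0352%) and 3 at an adjusted p under 0.01 (0.0381%). For the fits without 1 array, shares over all tested probe sets are not given.

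A fall cannot be followed below the floor. In Col 21 members were at the floor on at least 1 IAA array, so their Col falls are lower bounds. On all 3 IAA arrays 6 of them were at the floor. The named ones were AT5G60520, lower by at least 3.3-fold, AT5G60760 by at least 2.25-fold, AT5G61290 by at least 2.04-fold and AT1G14220 by at least 2.03-fold. The unnamed ones were 247600_at (at least 4.84-fold) and 252534_at (at least 2.26-fold). In the mutants, 1 member was at the floor on all IAA arrays in nph4-1 arf19-1 (AT1G19900), 0 in nph4-1 and 3 in arf19-1 (AT3G32030, AT2G28780 and an unnamed probe set).

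AT5G60760 and AT5G61290 show how these members looked in the mutants. AT5G60760 had signals of 5.99, 5.77 and 5.64 with IAA and 6.08, 5.92 and 5.88 without it in nph4-1 arf19-1, where the control mean lay 0.32 above the floor. In arf19-1 it had 5.71, 5.81 and 5.64 with IAA and 7.20, 6.99 and 6.99 without it. AT5G61290 had 7.18, 7.22 and 7.64 with IAA and 7.60, 7.75 and 7.94 without it in nph4-1 arf19-1, and in Col it had 6.56, 6.42 and 7.04 without IAA. Its control mean in nph4-1 arf19-1 lay 2.12 above the floor, so its response of -0.41 there (adjusted p 1) was not limited by the floor.

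The share of the Col fall kept by a mutant was taken as its response divided by the Col response, in percent. It carries no test, since the Col response chose the members. A choice for large Col falls tends to make shares above 0 too low, by an amount that was not measured. The median share was 14.8% in nph4-1 arf19-1 (quartiles 7.37% and 23.3%), 29.9% in nph4-1 (14.1% and 53.4%) and 88.3% in arf19-1 (75.1% and 102%). At least 50% of the Col fall was kept by 2 members in nph4-1 arf19-1, 27 in nph4-1 and 95 in arf19-1, and under 20% by 66, 35 and 1. For the 21 members at the floor on at least 1 Col IAA array a share above 0 is an upper bound where the mutant's IAA arrays lay above the floor. Where a mutant IAA array was at the floor too, as for AT5G60760 on 1 arf19-1 array, the share is not bounded. The median share of the 96 members above the floor on a Col IAA array was 14.8%, 26.5% and 87.9%. Some of these 96 were at the floor on another Col IAA array. With the IAA arrays taken 1 at a time, the SD of the median share was 3.88, 7.1 and 3.52 percentage points in the same order of genotypes.

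Some control means in the mutants lay so close to the floor that the whole Col fall could not have been measured. This was so for 18 members in nph4-1 arf19-1, 10 in nph4-1 and 9 in arf19-1. Among the 84, 92 and 93 members with enough room, the median share was 14.8%, 26.5% and 91.7%. Leaving out the members that lacked room thus left the median unchanged in nph4-1 arf19-1, lowered it in nph4-1 and raised it in arf19-1.

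Named genes ran across this range. In nph4-1 the highest shares were those of AT1G76240 (93.9%), AT3G06460 (80.2%), AT1G19900 (72.4%) and AT3G49190 (72.2%), and the lowest were those of AT5G07580 (-27.8%) and AT5G62360 (-12.3%), a negative share standing for a response above 0. In nph4-1 arf19-1 the highest share of a named gene was 40.7% (AT1G25230) among those above the floor in Col. In arf19-1 the shares of named genes ran from 9.37% (AT1G19900) to 122% (AT4G30460), and the other shares under 51% were 31.5% (AT5G01015) and 50.7% (AT3G01260).

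**Figure D3:**
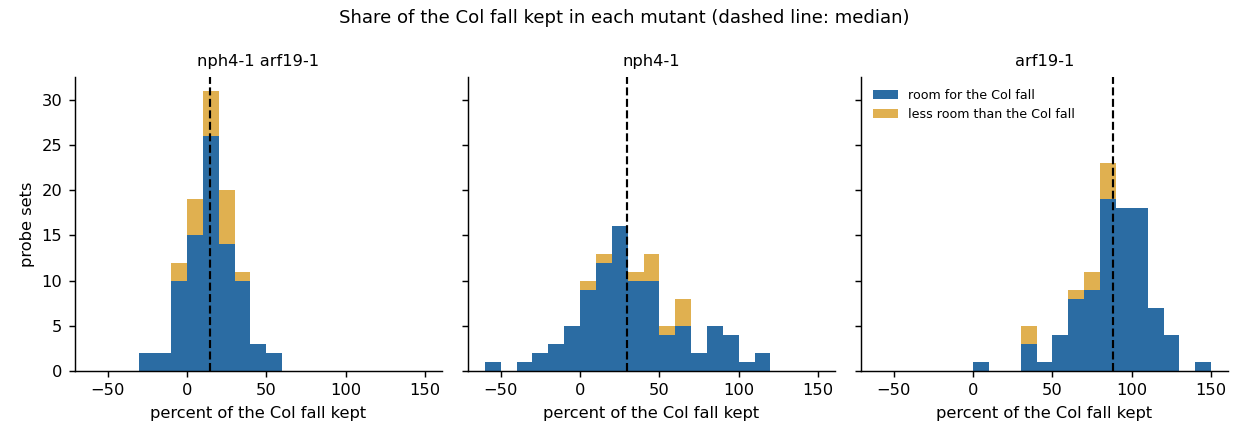
Number of probe sets (y axis) by the percent of the Col fall kept (x axis, 10-point bins) in each mutant, with members whose control mean leaves less room above the floor than the Col fall in yellow. Dashed lines mark the medians of 14.8%, 29.9% and 88.3%, and the spread is widest in nph4-1.

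The next comparison asked whether the responses of the mutants differ from each other, in contrasts whose estimates use no Col array and whose errors rest on the pooled spread of all 24 arrays. Against arf19-1, the response of nph4-1 arf19-1 was higher, which here means a smaller fall or none, in 67 members and lower in 0 (limma, adjusted p under 0.05), where 1.33% of all tested probe sets were higher. The median difference over the members was 0.94. Of the 67, 23 are named, and the differences were 1.84 for AT1G72200 (SE 0.26, adjusted p 8.6e-05), 1.49 for AT3G20015 (SE 0.24, adjusted p 0.0004) and 1.38 for AT4G30460 (SE 0.21, adjusted p 0.00025). At an adjusted p under 0.01 the count was 37 (2.09% of all tested probe sets differed in either direction). In 11 of the 67 the nph4-1 arf19-1 control mean left less room above the floor than the arf19-1 fall. AT1G72200 (room of 1.46, arf19-1 response of -2.0), AT5G60760 and AT1G14220 were among them.

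Between the single mutants, the response of nph4-1 was higher than that of arf19-1 in 31 members (0.692% of all tested probe sets were higher) and lower in 1 (1.24% were lower). It lay above that of arf19-1 in 93 of the 102 members, with a median difference of 0.66. The named genes with the largest called differences were AT1G72200 (1.70, SE 0.26, adjusted p 0.00041), AT4G30460 (1.18, SE 0.21, adjusted p 0.0023) and AT3G20015 (1.17, SE 0.24, adjusted p 0.0078). Of the 31, 27 fell in arf19-1 without a call in nph4-1, and 4 fell in both, AT1G74840 being the named one of these. The exception was 254606_at, which fell more in nph4-1 than in arf19-1 (difference -0.63, SE 0.13, adjusted p 0.0072). With array weights the count of differing members was 64 (9.89% of all tested probe sets).

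AT5G62360 and AT1G64590 were also among the 31, but both calls were weak. Their adjusted p values of 0.042 and 0.038 were lost in 16 and 11 of 33 alternatives.

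Against nph4-1, the response of nph4-1 arf19-1 was higher in 7 members and lower in 0, where 0.0952% of all tested probe sets were higher. The median difference was 0.19. AT1G76240 was the named gene (0.83, SE 0.15, adjusted p 0.01), and 254606_at had the largest difference (1.59, SE 0.13, adjusted p 2.9e-07). At an unadjusted p under 0.05, 28 members differed (3.99% of all tested probe sets), and with array weights 18 passed the adjusted test (0.781%). In the fit on the mutant arrays alone, 7 responses differed between nph4-1 arf19-1 and nph4-1, 76 between nph4-1 arf19-1 and arf19-1 and 40 between nph4-1 and arf19-1 (0.334%, 4.49% and 2.64% of all tested probe sets). The response in nph4-1 arf19-1 lay above those of both single mutants in 80 of the 102 members.

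**Figure D4:**
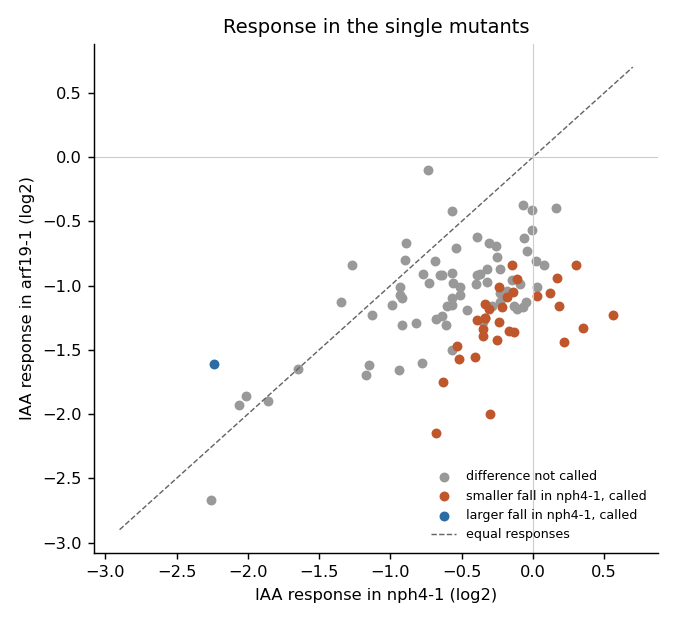
IAA response (log2) of each of the 102 probe sets in nph4-1 (x axis) and arf19-1 (y axis). Points below the dashed line of equal responses have a lower value in arf19-1, 31 orange points had a called smaller fall in nph4-1, and the blue point, 254606_at, had a called larger fall there.

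Levels without IAA also differed between the mutants. Without IAA, 29 members were lower in nph4-1 arf19-1 than in nph4-1 and 0 were higher (1.57% and 0.882% of all tested probe sets). Against arf19-1, 40 were lower in nph4-1 arf19-1 and 7 higher (3.5% and 3.15%). The level in nph4-1 arf19-1 was below both single mutants, each by a call, in 28 members (1.47% of all tested probe sets), where both contrasts share the nph4-1 arf19-1 control arrays. Between nph4-1 and arf19-1 without IAA, 1 member differed (247162_at, higher in nph4-1 by 0.83, adjusted p 0.011, where 0.0571% of all tested probe sets were higher), and 19 did at an unadjusted p under 0.05 (3.71%). In the fit on the mutant arrays alone, 32 levels differed between nph4-1 arf19-1 and nph4-1, 53 between nph4-1 arf19-1 and arf19-1 and 1 between nph4-1 and arf19-1 (3.28%, 8.59% and 0.193%). The count of 29 fell to 18, 19 and 18 without nph4-1 control 1, 2 and 3, and to 19 and 17 without nph4-1 arf19-1 control 2 and 3. Shares over all tested probe sets are not given for these fits. The count was 54 with array weights (13.2% of all tested probe sets) and 17 at an adjusted p under 0.01 (1.1%).

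AT1G19900 had the largest such difference of the named genes, -1.43 against nph4-1 (SE 0.13, adjusted p 5.6e-07) and -1.56 against arf19-1 (SE 0.13, adjusted p 1.1e-07), and both are limited by the floor on 2 of the 3 nph4-1 arf19-1 control arrays. AT4G39675 had 8.69, 8.62 and 8.41 without IAA in nph4-1 arf19-1, 9.39, 9.88 and 9.54 in nph4-1 and 9.54, 9.59 and 9.54 in arf19-1. All control arrays of nph4-1 arf19-1 lay below those of the single mutants, and the differences were -1.03 (SE 0.21, adjusted p 0.0062) and -0.98 (SE 0.21, adjusted p 0.004). The first of these did not pass without nph4-1 control 2 or nph4-1 arf19-1 control 3. AT4G20460, the epimerase, was lower in nph4-1 arf19-1 by 0.91 against nph4-1 (SE 0.15, adjusted p 0.0011), and the kinase-related AT5G60760 by 1.10 against arf19-1 (SE 0.10, adjusted p 2.1e-07).

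Of the 7 members that were higher in nph4-1 arf19-1 than in arf19-1 without IAA, 3 are named. The hydrolase gene AT5G02230 had 8.33, 8.52 and 8.72 in nph4-1 arf19-1 control against 7.28, 7.24 and 7.20 in arf19-1 control, a difference of 1.29 (SE 0.20, adjusted p 0.00025), and 7.50, 7.40 and 7.14 in Col control. AT5G62360 was higher by 0.82 (SE 0.20, adjusted p 0.012) and AT5G03230 by 0.48 (SE 0.13, adjusted p 0.023). The first of these 2 calls was lost without arf19-1 control 2 or nph4-1 arf19-1 control 3, and the second without arf19-1 control 1 or 2 or nph4-1 arf19-1 control 1.

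The smaller falls were set beside the levels without IAA. Of the 67 members whose response was higher in nph4-1 arf19-1 than in arf19-1, 29 also had a lower level without IAA in nph4-1 arf19-1 by a call, and 38 did not. Of all 102 members, 40 had a lower level without IAA in nph4-1 arf19-1 than in arf19-1 by a call. Both contrasts use the same nph4-1 arf19-1 and arf19-1 control arrays, so the overlap is given as a count only. No link between a lower level and a smaller fall is read from it. LSH9 and AT4G30460 are among the 38 and AT1G72200 among the 29, with a difference without IAA of -0.88 (SE 0.18, adjusted p 0.0039). Against Col, with no test, 56 members had a lower control mean in nph4-1 arf19-1, 35 in nph4-1 and 34 in arf19-1. With IAA, 95, 99 and 81 members had a higher mean than Col in the same order, by a median of 0.88, 0.97 and 0.22. The rule chose members for low Col IAA arrays and high Col control arrays, so these counts against Col are partly set by the choice.

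Root hair markers also differed between mutants without IAA. The summed linear signal of the 4 tested root hair markers was 468 to 595 in nph4-1 arf19-1 control, 817 to 1108 in nph4-1 control, 1027 to 1216 in arf19-1 control and 701 to 1109 in Col control, and no value lay at the floor. GH9C1, a root hair cellulase, was lower in nph4-1 arf19-1 than in nph4-1 by 0.96 (SE 0.14, adjusted p 0.00034) and than in arf19-1 by 1.16 (SE 0.14, adjusted p 1.9e-05). XTH26, a root hair wall enzyme, was lower by 1.15 (adjusted p 0.014) and 1.40 (adjusted p 0.0011). The root hair expansins EXPA7 and EXPA18 were lower than in arf19-1 by 0.91 and 0.99 and did not pass against nph4-1 (adjusted p 0.058 and 0.38). With IAA the summed signal was 492 to 553 in nph4-1 arf19-1 and 732 or more in the other genotypes, and none of the 4 markers responded to IAA by a call in a mutant. The other 21 genes of the root hair list had no named probe set among those tested, PYK10 differed by -0.04 and -0.17 without a call, and the part of root hairs in the levels of the members was not tested.

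**Figure D5:**
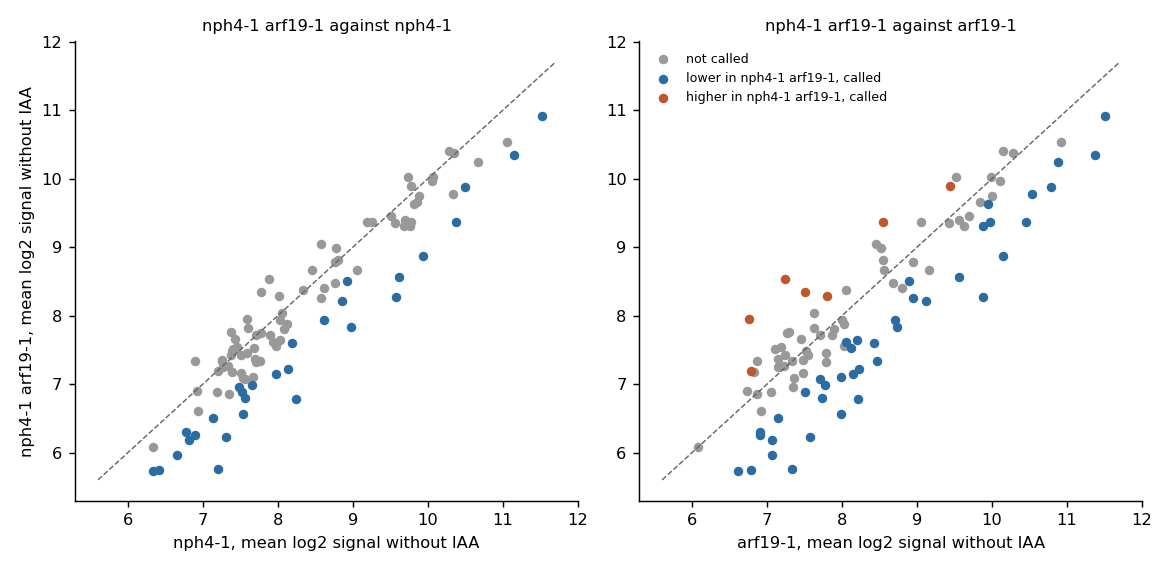
Mean log2 signal without IAA of each of the 102 probe sets in nph4-1 arf19-1 (y axis) against nph4-1 (left) and arf19-1 (right), with equality dashed. Blue points were lower in nph4-1 arf19-1 by a call (29 left, 40 right) and orange points higher (0 left, 7 right).

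For scale, the mirrored rule, applied without the exclusions made for the lowered members, gave 291 probe sets raised at least 2-fold by IAA in Col. Of the lowered members, 6.86% fell in nph4-1 arf19-1, 34.3% in nph4-1 and 95.1% in arf19-1, while of the raised probe sets 9.62%, 48.1% and 92.4% rose. The median share of the Col change kept was 14.8%, 29.9% and 88.3% for the lowered members and 8.65%, 35.1% and 89.4% for the raised probe sets. Lowered and raised probe sets thus had the same order of genotypes, and the difference between them was not tested. The share of all tested probe sets that rose in each mutant was not taken. The 37 named members that could be placed in the RefSeq gene order (TAIR10.1) had no direct neighbours among themselves, and the closest pair lay 26 genes apart.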

How the data were processed

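Total RNA of 24 seedling samples was hybridised to oligonucleotide arrays, and the authors deposited 1 log2 signal per probe set and array with a floor of 50 in linear units, per the values of the deposited table. The summary and scaling method is not given in the sources used here. Of 22810 probe sets, 64 AFFX controls and 6989 at the floor on all 24 arrays were left out. The other 15757 were fitted with 8 group means on all arrays in limma 3.58.1 under R 4.3.3 (lmFit, eBayes with trend and robust), two-sided, with Benjamini-Hochberg adjustment per contrast and a threshold of 0.05, and the model was tested on simulated data. Log2 errors are standard errors of this fit, whose spread is pooled over all 24 arrays, those of Col included. The number of arrays limits the precision.

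The members, marker lists, named genes and tests were chosen with earlier results of these data known, and the grouping by role was made after the values had been seen. Named in full by rule were the 10 genes with the lowest Col response, the extremes of each mutant contrast and the genes at the floor in Col. Other named members were chosen after their values were seen. Endodermis, xylem, photosynthesis, TOPLESS, repressor-type ARF and dormancy-associated lists had no named tested probe set. Promoters were not analysed here. Of the probe sets, 13513 have 1 gene, 503 several and 8794 none in the platform annotation, and 37 of the 38 named members were found in RefSeq (TAIR10.1), used for names and gene order.

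Arrays with the same replicate number deviated together, by correlations of 0.322 to 0.42 in the nph4-1 response, 0.183 to 0.501 in the nph4-1 arf19-1 response, 0.171 to 0.313 between the nph4-1 arf19-1 and nph4-1 controls and 0.229 to 0.58 between the nph4-1 and arf19-1 controls. The pairing comes from the data and not from the labels, and was not met in the other contrasts.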

Additional observations from a re-analysis of the deposited data

Results flagged for a closer look

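These results stand out because the response to IAA differed between mutants by a test of the difference itself (limma, adjusted p under 0.05). Between nph4-1 arf19-1 and arf19-1 67 members differed, AT1G72200 by 1.84, AT3G20015 by 1.49 and AT4G30460 by 1.38. For AT1G72200 the nph4-1 arf19-1 control mean lay 1.46 above the floor, which is less room than its arf19-1 response of -2.0 takes up. Between nph4-1 and arf19-1 32 members differed, AT1G72200 by 1.70, AT4G30460 by 1.18 and AT3G20015 by 1.17. The same 3 named genes lead both comparisons, which share the arf19-1 arrays. Between nph4-1 arf19-1 and nph4-1 7 members differed, with AT1G76240 (0.83) the named one. All differences are log2 and positive, so the fall was smaller in the mutant named first, with the exception of 254606_at among the 32.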

How the results depend on the processing

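No result reversed under quantile normalization, a common array median, a filter on dim probe sets, no filter, plain eBayes, only the arrays compared, only the mutant arrays (added after the data were seen), array weights, a stricter threshold or leaving out an array. With array weights the counts were 13 falls in nph4-1 arf19-1 and 53 in nph4-1, 18 and 64 differing responses (nph4-1 arf19-1 against nph4-1, nph4-1 against arf19-1), and 54 and 26 differing levels without IAA for the same pairs. With only the arrays compared they were 18 falls in nph4-1 and 0 differing levels between nph4-1 and arf19-1. Without the filter 4 members fell in nph4-1 arf19-1. At an adjusted p under 0.01, 3 members fell in nph4-1 arf19-1, 37 responses differed between nph4-1 arf19-1 and arf19-1, and 17, 31 and 0 levels without IAA differed (nph4-1 arf19-1 against nph4-1, against arf19-1, and nph4-1 against arf19-1). No share over all tested probe sets was taken for the 26 and the 31 levels, so these counts are not read alone. A response of at most -1.5 left 22 members. The cause was not tested.

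Leaving out 1 array at a time gave 3 to 8 falls in nph4-1 arf19-1, 25 to 37 in nph4-1 and 92 to 98 in arf19-1. It gave 6 to 9, 48 to 74 and 25 to 38 differing responses (nph4-1 arf19-1 against nph4-1, against arf19-1, and nph4-1 against arf19-1), and 17 to 30, 36 to 49 and 0 to 1 differing levels without IAA. The single differing level between nph4-1 and arf19-1 was lost without any nph4-1 control array and without arf19-1 control 2 or 3. The rule gave 100 to 114 members, and the median shares were 12.8% to 17.7%, 27.4% to 32.6% and 87.3% to 92% (nph4-1 arf19-1, nph4-1, arf19-1), the last highest without Col IAA 1. Without nph4-1 IAA 1, the array of lowest weight, 34 members fell in nph4-1. Shares over all tested probe sets are not given for the fits without 1 array, so these counts are not read alone.

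With the replicate number as a block (replicate block), 6, 38 and 98 members fell in nph4-1 arf19-1, nph4-1 and arf19-1, and 8, 71 and 40 responses and 29, 49 and 1 levels differed, so no count moved over 1.5 times. Shares over all tested probe sets were not taken for the fit with the block. For 18 of 24 arrays, the mean correlation with the arrays of other groups was highest for those of the same replicate number. Of the named calls, 3 of 11 in nph4-1 and 33 of 36 in arf19-1 held in all alternatives at the threshold of 0.05.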

Other observations

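The following values were chosen after they were seen. Among members without a named gene, 256012_at had the highest response in nph4-1, 0.56 (adjusted p 0.36), and fell in arf19-1 by 1.23. Besides AT5G01015, the members that passed in no mutant were 249800_at, 258003_at and 247162_at, with arf19-1 responses of -0.41 (adjusted p 0.39), -0.91 (adjusted p 0.052) and -0.40 (adjusted p 0.091).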
